A study of Drosophila melanogaster with 2 samples.

Results

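Occupancy by E(var)3-9, a fly chromatin protein whose gene is known from screens for enhancers of variegation, was examined at 10 genes that encode transcription factors with a BTB domain, namely Trl, psq, lola, ttk, mod(mdg4), chinmo, ab, bab1, bab2 and fru. The genes were taken by name from the Ensembl annotation, in which all 10 were found among 13945 protein-coding genes on the 6 assembled arms. The data are a chromatin immunoprecipitation sequencing (ChIP-seq) experiment on whole embryos of Drosophila melanogaster, of mixed sex and aged 0 to 24 h, from a single stably transformed line that carries E(var)3-9 fused at its C-terminus to GFP. The tagged protein was precipitated with an antibody against GFP in 2 biological replicates, numbered 2 and 3, which make up the single group, so there is no comparison between conditions. Whole embryos pool all cell types, and fewer cells with a bound site cannot be told from weaker binding per cell.

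The BTB domain is a protein interaction surface through which these factors pair with themselves and with each other, and most of them bind DNA through zinc fingers. Trl encodes GAGA factor, which binds GAGAG sequence and helps to keep promoters and Polycomb response elements free of nucleosomes, and psq encodes Pipsqueak, which binds similar GA-rich sequence. mod(mdg4) encodes a large set of isoforms that include a component of the gypsy insulator. The remaining genes encode regulators of cell fate and of neuronal wiring, many of them with alternative promoters and long introns.

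Each of the 4 lists used here gives regions with a summit and a signal value, a score of the authors' caller with no stated scale. A joint list made from both replicates holds 24963 regions, and the 3438 of them that passed the authors' irreproducible discovery rate threshold are called IDR regions here. They are the strongest of the joint list, with signals of at least 58.2 and a median of 89.3. Each replicate also has its own list. A region was assigned to the promoter of a gene when its summit lay within 500 bp of any annotated transcription start site (TSS) of that gene, and to the rest of the span when it lay elsewhere between the ends of the gene. By this rule the 10 genes held 16 IDR regions, 125 joint-list regions, 165 regions of replicate 2 and 111 regions of replicate 3. Read depth is unknown.

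IDR regions were found at 6 of the 10 genes. The share of all protein-coding genes with an IDR summit in either place is not given here. By place, 16.5% of them had one at a promoter and 5.95% in the rest of the span. Among protein-coding genes at least as long as Trl the shares were 21.9% and 34.7%. Trl and psq held 4 each, fru 3, lola and mod(mdg4) 2 each and bab1 1, while ttk, chinmo, ab and bab2 held none. The strongest lay in introns of Trl, with a joint signal of 557, and of mod(mdg4), with 336. All 10 genes held weaker regions of the joint list, from 5 at mod(mdg4) to 26 at fru. The largest signal of a member region below the threshold was 52.0, at lola, and the smallest above it was 61.3, at mod(mdg4). The plot of joint signals by gene shows how few regions of each gene stand above the rest.

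**Figure D1:**
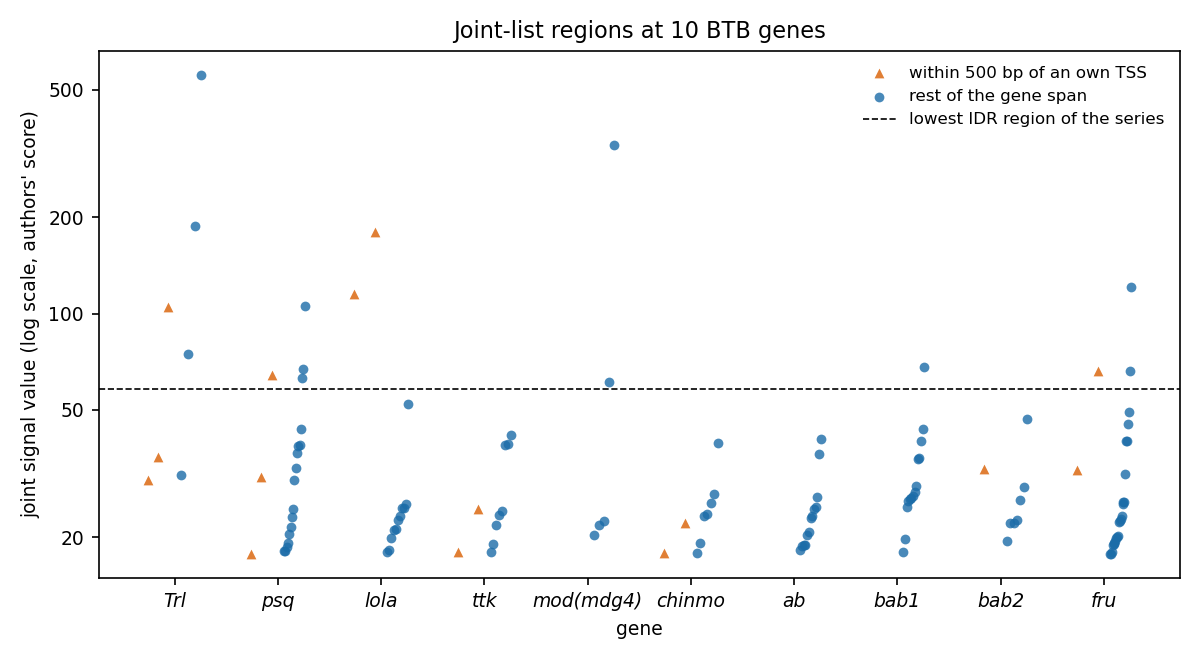
Joint signal value (log scale, the authors' score) of all 125 joint-list regions at the 10 BTB genes, with triangles for summits within 500 bp of an own TSS and circles for the rest of the span. The dashed line is the lowest IDR region of the series, at 58.2, and the 16 symbols above it belong to Trl, psq, lola, mod(mdg4), bab1 and fru.

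Trl, on the minus strand of 3L between 14747929 and 14761049, is the shortest of the 10 genes at 13.1 kb, with 4 distinct TSSs. Its 4 IDR summits lay within 4248 bp of each other in the 5′ part of the gene, at 696, 1534, 3840 and 4944 bp from its 5′ end. The strongest, on 3L from 14759323 to 14759706, lay in an intron 1534 bp downstream of the first TSS. The nearest TSS of another gene, CG42507, was 1553 bp away, at a position that is also an internal TSS of Trl. The strongest region thus lay between the first and an internal TSS of Trl. Its signal was 557 in the joint list (rank 20 of 3438), 309 in replicate 2 (rank 17 of 30000) and 254 in replicate 3 (rank 23). Both replicates therefore placed it near their top, and their summits lay 0 and 25 bp from the joint one. Among the 1586 IDR regions more than 500 bp from every annotated TSS it was the 5th strongest.

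The other 3 IDR regions of Trl were weaker. An intronic region 1231 bp downstream of the nearest own TSS had a joint signal of 188, with 99.1 in replicate 2 and 81.5 in replicate 3. The promoter region, whose summit falls in annotated 5'UTR 127 bp downstream of a TSS, had a joint signal of 105, with 53.9 and 49.1. The region 696 bp downstream of the first TSS had a joint signal of 74.99, with 38.7 and 39.1. The 4 regions thus kept the same order of signal in the joint list and in replicate 2, and in replicate 3 as well. The promoter region and the intronic region of 188 also lie within the overlapping gene CG42507, so the assignment of these to Trl rests on distance alone.

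The sequence under the 4 Trl summits is shown because the product of Trl binds GAGAG. Each line gives 151 bases of the plus strand of dm6 centred on the joint summit, read from the RefSeq genome of the same assembly, with any GAGAG on either strand in capitals. The windows span chr3L:14759440-14759590, chr3L:14756030-14756180, chr3L:14757134-14757284 and chr3L:14760278-14760428.
Trl intron, signal 557: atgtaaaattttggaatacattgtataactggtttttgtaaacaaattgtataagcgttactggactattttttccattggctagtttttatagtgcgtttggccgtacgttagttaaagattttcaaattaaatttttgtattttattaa
Trl intron, signal 188: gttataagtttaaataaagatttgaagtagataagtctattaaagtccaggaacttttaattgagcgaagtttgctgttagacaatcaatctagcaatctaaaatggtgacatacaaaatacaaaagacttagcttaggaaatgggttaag
Trl promoter, signal 105: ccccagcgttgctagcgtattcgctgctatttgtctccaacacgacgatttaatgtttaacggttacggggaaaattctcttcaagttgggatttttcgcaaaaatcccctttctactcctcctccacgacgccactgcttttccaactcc
Trl intron, signal 74.99: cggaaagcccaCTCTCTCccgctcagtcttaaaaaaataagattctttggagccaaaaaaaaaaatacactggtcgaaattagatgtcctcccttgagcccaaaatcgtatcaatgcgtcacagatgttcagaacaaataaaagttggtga

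GAGAG was found in the weakest of these windows alone, as 2 overlapping matches on the minus strand, and the 3 stronger windows held none. The window of the strongest region was 74.2% A and T, and the promoter window was 53.0% A and T. All IDR regions had a median of 68.2% over the same length, so the strongest Trl region lay above that value and the promoter region below it.

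psq, on the plus strand of the right arm of the second chromosome from 10557888 to 10617280, held 4 IDR regions spread over 5 TSSs and 59.4 kb. The strongest lay in an intron 1438 bp upstream of the nearest own TSS, and had 106 in the joint list, with 75.3 in replicate 2 and 34.8 in replicate 3. The promoter region lay 103 bp upstream of the first TSS and outside the gene itself. Its joint signal was 64.3, and the replicate lists gave 32.5 and 30.9. The remaining intronic regions had joint signals of 67.0, 2475 bp upstream of a TSS, and of 63.1, 17967 bp downstream of one. For these, replicate 2 gave 45.8 and 34.6 and replicate 3 gave 24.4 and 19.5. The strongest was at the level of the Trl promoter region, and the other 3 were below every IDR region of Trl. Near the strongest region replicate 2 held a second summit, with a signal of 63.1. The joint list also held a second one there, with 38.8, below the IDR threshold, while replicate 3 held a single region.

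mod(mdg4), on the minus strand of 3R between 21350846 and 21377401, has a single annotated TSS of its own and no joint-list region within 500 bp of it. Its transcripts are known to be assembled by trans-splicing, in which the shared 5′ exons are joined to 3′ exons transcribed separately. The annotation lists these separate precursors as genes named pre-mod(mdg4). Both IDR regions lay in an intron, 11987 and 11786 bp from the mod(mdg4) TSS, and overlapped each other by 114 bp. The stronger, from 21365235 to 21365518, had 336 in the joint list (rank 89), with 156 in replicate 2 and 191 in replicate 3. It lay 74 bp from the TSS of pre-mod(mdg4)-E, and the weaker lay 6 bp from that of pre-mod(mdg4)-AD. Each summit had TSSs of 10 pre-mod(mdg4) genes within 500 bp, 7 on the plus strand and 3 on the minus strand. By the TSSs of mod(mdg4) both regions are intronic, and by those of the precursor genes both lie at promoters.

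The weaker mod(mdg4) region had a joint signal of 61.3, close to the threshold. Replicate 3 held a region of its own there with a signal of 86.9, whereas replicate 2 held a single region, whose summit lay between the joint summits, 76 bp from the stronger and 125 bp from the weaker. The replicate 2 value of 156 therefore counts for both joint regions, and whether they are 1 site or a pair was not tested. The windows of 151 bases, plus strand of dm6, show the 201 bp step from one summit to the other, at chr3R:21365339-21365489 and chr3R:21365540-21365690, with no GAGAG in either.
mod(mdg4) intron, signal 336: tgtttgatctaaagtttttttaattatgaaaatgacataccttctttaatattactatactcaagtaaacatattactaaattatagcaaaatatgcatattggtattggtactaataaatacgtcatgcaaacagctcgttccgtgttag
mod(mdg4) intron, signal 61.3: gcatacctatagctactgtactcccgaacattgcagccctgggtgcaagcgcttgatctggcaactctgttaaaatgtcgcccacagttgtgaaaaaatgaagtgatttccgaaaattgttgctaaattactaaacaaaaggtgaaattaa

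fru, on the minus strand of 3R between 18414273 and 18545586, encodes the Fruitless factors of male courtship behaviour and is the longest of the 10 genes at 131 kb, with 7 TSSs. Its 3 IDR regions all lay in the 3′ part of the gene, between 89151 and 108798 bp from its 5′ end. The strongest lay in an intron 1983 bp downstream of the last TSS and had 121 in the joint list, with 73.7 in replicate 2 and 42.7 in replicate 3. A promoter region 135 bp upstream of that same TSS had a joint signal of 66.3, with 40.9 and 30.6, and an intronic region 6181 bp upstream of a TSS had 65.9. For the last, replicate 2 gave 39.0 and the nearest region of replicate 3, 67 bp away, gave 11.2. Another region of replicate 3, farther from the joint summit but also within the match distance of 150 bp, had a signal of 24.0 (rank 3657). The first 6 of the 7 TSSs of fru had no IDR region within 500 bp. The paired windows at the last TSS are shown to set its promoter region beside the stronger intronic one, at chr3R:18438831-18438981 and chr3R:18436713-18436863, 151 bases of the plus strand of dm6.
fru promoter, signal 66.3: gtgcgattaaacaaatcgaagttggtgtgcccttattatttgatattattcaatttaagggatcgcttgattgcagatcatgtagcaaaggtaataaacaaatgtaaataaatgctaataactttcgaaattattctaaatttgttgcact
fru intron, signal 121: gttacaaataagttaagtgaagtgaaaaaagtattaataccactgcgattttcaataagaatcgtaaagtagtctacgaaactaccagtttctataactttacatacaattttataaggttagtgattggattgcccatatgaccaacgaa

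Both fru windows lacked GAGAG and were similar in base composition, at 70.2% and 69.5% A and T. bab1, on the minus strand of 3L between 1036369 and 1101089, encodes a factor of leg, ovary and abdominal patterning. Its single IDR region lay in an intron 17584 bp downstream of the only TSS and had 68.1 in the joint list, with 42.3 in replicate 2 and 25.2 in replicate 3. Its window is shown for its run of 26 A or T bases, at chr3L:1083430-1083580 on the plus strand of dm6. A run of at least that length was found in 117 of the 3438 IDR windows (3.40%), against a median longest run of 12.
bab1 intron, signal 68.1: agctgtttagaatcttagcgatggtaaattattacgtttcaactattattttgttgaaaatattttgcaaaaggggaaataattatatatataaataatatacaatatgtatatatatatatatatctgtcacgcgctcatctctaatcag

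bab2, the neighbouring paralogue with shared roles, is on 3L from 1140429 to 1177276 and held no IDR region. Its strongest joint-list region, in an intron from 1151615 to 1152034, had a signal of 46.8, with 32.6 in replicate 2 and no region of replicate 3 within 150 bp. In replicate 3 the strongest region of bab2 was another intronic one, with a signal of 26.2 (rank 3129), which replicate 2 did not hold within 150 bp. The only promoter region of bab2 in the joint list, 495 bp from its TSS, had 32.7. The replicates thus placed the strongest region of bab2 at different sites. They also did so for bab1, where the strongest region of replicate 3 was another intronic one with a signal of 28.9, and for ttk, ab and chinmo.

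lola, which encodes many alternative zinc finger isoforms that guide axon growth, was the member whose IDR regions all lay at a promoter. It lies on the same arm as psq, from 10481894 to 10543291 on the minus strand. Its 2 IDR regions lay in an intron 297 and 498 bp upstream of an internal TSS and overlapped by 219 bp. The stronger had 180 in the joint list (rank 441), with 85.3 in replicate 2 and 82.7 in replicate 3, and lay 372 bp from the TSS of the antisense transcript asRNA:CR45135. The second had 115.3 in the joint list, with 72.3 in replicate 2 and 25.6 in replicate 3. The replicates were nearly equal at the first summit and 2.82 times apart at the second. The second summit lies 2 bp inside the 500 bp limit.

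The 3 other genes without an IDR region were alike in level. ttk, on 3R from 31713867 to 31735392, encodes Tramtrack, a repressor of neuronal fate, and its strongest joint-list region, in an intron, had a signal of 41.6, with 25.5 in replicate 2 and 15.4 in replicate 3. ab, on 2L from 11210678 to 11261080, encodes a factor of dendrite shape, and its strongest, in an intron, had 40.6, with 17.4 and 18.3. chinmo, on 2L from 1651258 to 1704682, encodes a factor of neuronal birth order and stem cell identity, and its strongest, in an intron, had 39.4, with 31.3 and 11.5. In each of these genes both replicates held a region at the strongest joint site, but the strongest regions of the 2 replicates lay at different places from each other. For ttk these were a promoter region of 25.7 in replicate 2 and an intronic region of 23.6 in replicate 3. For ab they were 30.1 and 18.3, and for chinmo 31.3 and 17.1, all in the rest of the span. The 18.3 of ab and the 31.3 of chinmo were the regions at the strongest joint site. Promoter regions of ttk and chinmo reached only 24.5 and 22.1 in the joint list, and ab had none there.

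**Figure D2:**
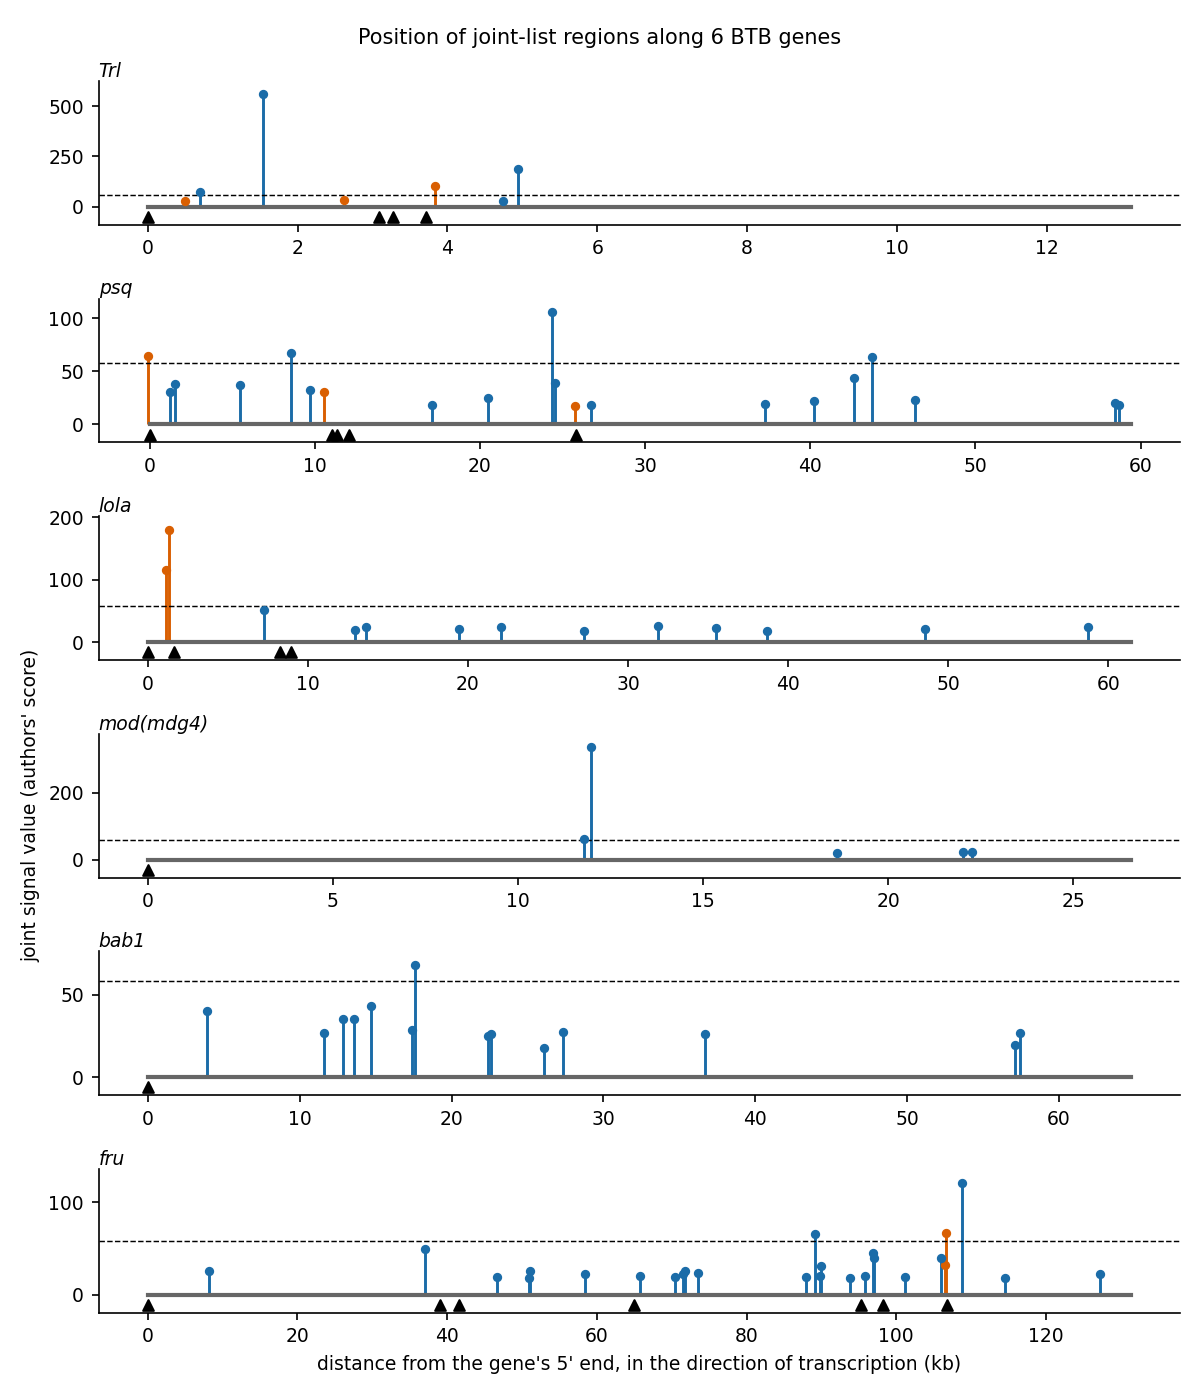
Joint signal value (the authors' score, linear) of joint-list regions against distance from the gene's 5′ end in kb for the 6 genes with an IDR region, in orange within 500 bp of an own TSS and in blue elsewhere. Black triangles are annotated TSSs, grey bars the gene spans and dashed lines the lowest IDR region (58.2). The Trl regions gather in the first 4944 bp, and the fru IDR regions lie beyond 89151 bp.

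Of the 16 IDR summits, 5 lay within 500 bp of an own TSS (31.25%, 95% Wilson interval 14.2 to 55.6, which covers counting of regions only) and 11 in the rest of the span, all 11 in introns. The overlapping pairs at lola and mod(mdg4) were counted as separate regions, and the interval does not allow for regions that share a gene. Over the whole series, 59.8% of the 2957 IDR summits at or within protein-coding genes lay within 500 bp of a TSS of such a gene. The 2 mod(mdg4) regions count as promoter regions in that series-wide share but not in the 31.25%. The shares are thus not counted alike, and the interval cannot be set against 59.8%. No such share for long genes alone is given. Among the 3438 strongest regions of each replicate, the 10 genes held 15 regions in replicate 2 and 15 in replicate 3, of which 4 lay at promoters in either list (26.7%). None of the 16 summits lay in a coding exon, and of the 125 joint-list summits 4 did, 2 at lola and 2 at mod(mdg4). Series-wide shares in introns and coding exons are not given, so these counts describe the 10 genes alone. Of the 125 joint-list summits, 15 (12%) were promoter summits by own TSSs. Among the 18724 joint-list summits at or within protein-coding genes, 32.3% were, counted by the TSS of any such gene.

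Promoter and intronic IDR regions of the 10 genes did not separate by signal. The 5 promoter regions had signals of 64.3 at psq, 66.3 at fru, 105 at Trl, and 115.3 and 180 at lola, with a median of 105. The 11 other regions ran from 61.3 to 557 with a median of 74.99. The ranges overlapped throughout, and the 2 strongest regions were intronic by own TSSs, although the second, at mod(mdg4), lies within 500 bp of TSSs of pre-mod(mdg4) genes. The median difference of 29.7, higher at promoters, rested on lola, since without lola it was -8.64. It was also negative among the 860 strongest IDR regions, at -156, where the stronger lola region was the only promoter region. With a TSS distance of 250 bp it was -39.4. Over all IDR regions at or in protein-coding genes the medians were 94.0 at promoters and 86.2 elsewhere, with a promoter counted by the TSS of any such gene, so that both mod(mdg4) regions fall in the promoter class. In the joint list, the medians at the 10 genes were 32.4 at promoters and 24.5 elsewhere, against 34.03 and 23.6 over the joint-list regions at or within protein-coding genes.

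By gene, 4 of 10 had an IDR promoter summit (40%, Wilson interval 16.8 to 68.7, counting of genes only), namely Trl, psq, lola and fru. The background was 16.5% of all protein-coding genes and 21.9% of the 1545 protein-coding genes that are at least as long as Trl. An IDR summit in the rest of the span was found at 5 of 10 genes (50%, interval 23.7 to 76.3), namely Trl, psq, mod(mdg4), bab1 and fru. Here the background was 5.95% of all protein-coding genes but 34.7% of those at least as long as Trl. The share of all genes for the rest of the span thus depends on gene length, and both shares of long genes lie inside the intervals of the 10 genes. Trl is the shortest of the 10 genes, so the background of long genes is not matched to their lengths either. In the complete joint list 7 of 10 genes had a promoter summit, against 42.4% of all and 58.5% of long genes. All 10 had a summit in the rest of the span, against 26.2% of all and 93.9% of long genes.

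The replicates gave similar counts of genes. Among the strongest 3438 regions, replicate 2 had promoter summits at 3 of the 10 genes (background 16.4%) and other summits at 5 (background 6.02%). Replicate 3 had promoter summits at 4 (background 15.4%) and other summits at 7 (background 6.31%). These backgrounds cover all protein-coding genes. Shares of long genes are not given for these lists, so the counts of other summits cannot be read as an excess. The gene that replicate 3 added among those with any such summit was bab2. In the rest of the span it also added lola. There the summit of the second lola region lay 534 bp upstream of the TSS in replicate 3 and 499 bp upstream in replicate 2, on either side of the 500 bp limit. Per length, the spans of the 10 genes, 519 kb in all, held 2.89 IDR summits per 100 kb, against 2.08 over all protein-coding spans merged, and 23.7 joint-list summits against 17.5. In replicate 3 alone the densities were 21.2 and 21.1 per 100 kb. In replicate 2 alone they were 31.2 and 22.2.

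**Figure D3:**
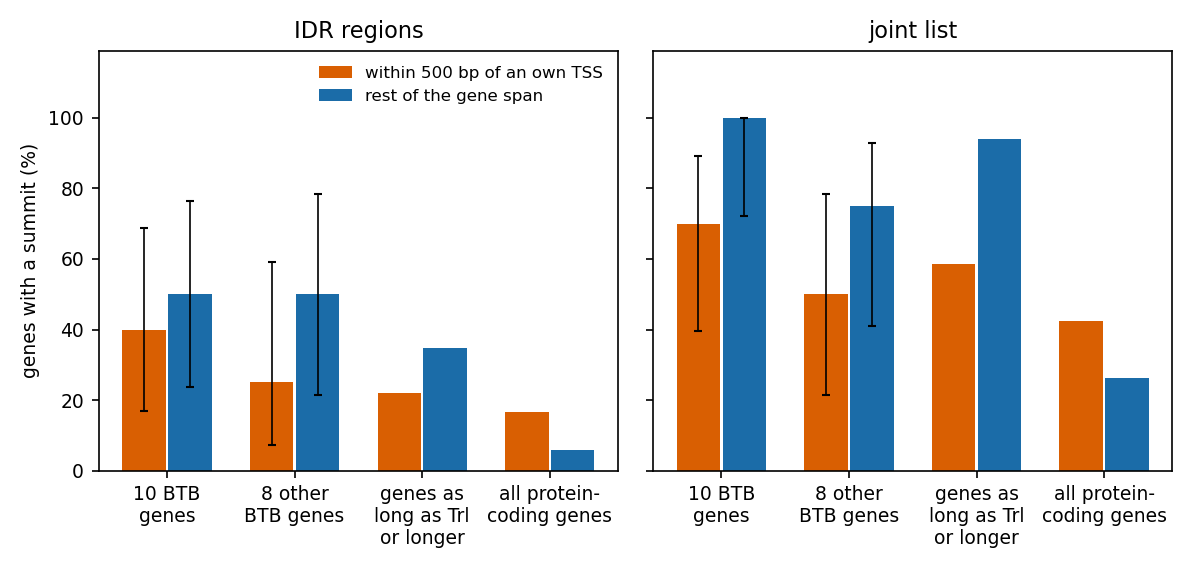
Percentage of genes with a summit within 500 bp of an own TSS (orange) or in the rest of the span (blue), among IDR regions (left) and the joint list (right), for the 10 BTB genes, 8 other BTB genes, protein-coding genes at least as long as Trl and all protein-coding genes. Bars start at 0 and the lines on the first pairs of bars are 95% Wilson intervals. The blue bars of long genes (34.7% and 93.9%) stand far above those of all genes (5.95% and 26.2%).

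All 16 IDR regions had a summit of both complete replicate lists within 150 bp, as did 96.04% of all IDR regions. The IDR threshold selects regions for agreement between these same replicates, so this matching was largely set by the selection. In 12 of the 16 (75%, against 68.3% over the series) both matching regions were among the 3438 strongest of their list. The signal was higher in replicate 2 at 14 of the 16 regions and higher in replicate 3 at 2, the stronger mod(mdg4) region and the weakest Trl region. The lists are not on a stated common scale, so this describes the scores of each list. At the weaker mod(mdg4) region the replicate 2 value, 156, is that of the single region also matched to the stronger one. That region enters these counts for both. With summits within 75 bp, 13 of the 16 were matched in both lists. The ratio of replicate 2 to replicate 3 had a median of 1.51 over the 16 regions and of 1.37 over all matched IDR regions, and ran from 0.817 at mod(mdg4) to 3.47 at fru. The fru value rests on taking the nearest replicate 3 summit (11.2) rather than the stronger one farther away (24.0), and the next highest ratio was 2.82, at lola. Below the threshold, 22 of 109 joint-list regions (20.2%) were found in both replicate lists, against 29.6% over the series. The threshold itself sorts regions by agreement, so the lower share below it is no separate finding.

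**Figure D4:**
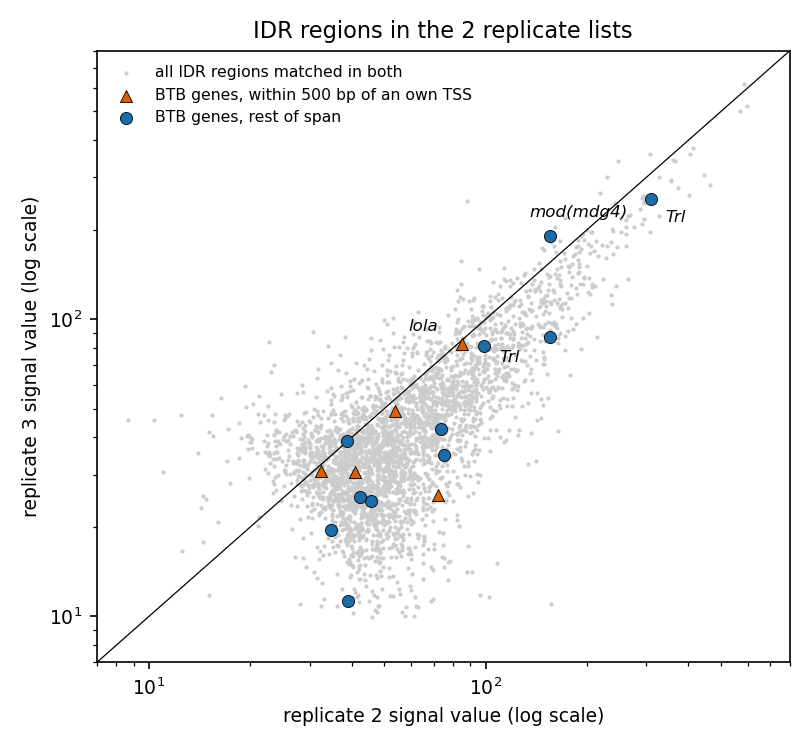
Signal value of IDR regions in the replicate 2 list (x axis) and the replicate 3 list (y axis), both on log scales, for regions with a summit within 150 bp in both lists. Grey points are all such IDR regions, coloured symbols the 16 of the BTB genes, and the line marks equal values. The strongest Trl region, at 309 and 254, is the farthest out of the 16, and 14 of the 16 lie below the line.

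The summits of the 10 genes were also compared by sequence. Within 100 bp of the summit, GAGAG on either strand was present in 1 of the 16 IDR regions (6.25%, Wilson interval 1.11 to 28.3), the weakest Trl region. It was present in 19.9% of all IDR regions and in 25.0% of windows of the same length at protein-coding TSSs. In the joint list the share was 22.4% at the 10 genes and 20.6% overall. CGATA, the core of the element bound by DREF and BEAF-32, was in 1 of the 16, at the stronger lola region, against 28.3% of all IDR regions. This count moved with the window, to 0 of 16 within 50 bp (15.3% of all IDR regions) and 4 of 16 within 150 bp (25%, against 39.4%). In the joint list the share within 100 bp was 18.4% at the 10 genes and 23.3% overall. The longer TATCGATA, which contains CGATA on both strands, was in 0 of 16 against 3.14%. CAGGTAG, the element bound by Zelda, was in 0 of 16 against 0.756%. GGTCACACT, bound by M1BP, was in 0 of 16 against 0.902%, and GGTCCTGC, bound by Tramtrack, in 0 of 16 against 0.0873%. Taking 3 counts of the total as the limit that a count of 0 allows, 0 in 16 allows a share of up to 18.75%, above each of these shares, so no shortage of the longer elements was detectable. The matches are descriptions of these windows. The median A and T content over the 201 bp was 65.9% at the 10 genes and 66.7% over all IDR regions.

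The other BTB genes examined were br, lolal, rib, lov, ken, mamo, Cp190 and BtbVII. Of these 8, 2 had an IDR promoter summit (25%) and 4 had one in the rest of the span (50%). The background was 16.5% and 5.95% of all protein-coding genes, and 21.9% and 34.7% of those at least as long as Trl. The 8 genes run from 4.10 kb (lolal) to 144 kb (mamo), so neither background is matched to their lengths. The promoter summits were at Cp190, which encodes an insulator cofactor, with a joint signal of 269, and at lolal, which encodes a short BTB protein that binds GAGA factor, with 84.8. The Cp190 region lies 110 bp upstream of its TSS and also within 500 bp of a TSS of CG4338. The intronic summits were at mamo with 203, br with 149, ken with 144, and rib with 88.1 and 81.3. lov and BtbVII held none. The strongest of these, at Cp190, was weaker than the first regions of Trl and mod(mdg4) and stronger than those of the other 8 listed genes.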

How the data were processed

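ChIP-seq of E(var)3-9-GFP was done on whole embryos in 2 biological replicates, which the labels place in 1 group. The labels give the replicates separate biosamples but 1 line, so differences between lines were not sampled. Sonication gave a size range of 200 to 800 bp, per the labels. The deposited dm6 region lists are, per the notes deposited with the samples, regions and background prepared as IDR input for each replicate and for both pooled against a control, plus the pooled regions past the IDR threshold. The sources used here name no aligner, caller or threshold value. Each region has a signal in the deposited lists, a value assigned by the caller. The deposited −log10 q-value was read and enters no result. The control, the signal tracks and the dm3 lists were not used here, so no background in a control is given.

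Genes and TSSs came from Ensembl release 115 on dm6, and sequence from RefSeq Release 6, the same assembly. TSSs are the 5′ ends of all annotated transcripts. Summits are the region start plus the deposited offset, written 1-based. Replicates were matched by the nearest summit within 150 bp. Shares have 95% Wilson intervals. No test was made, since regions of 1 gene share their source and there is 1 group. The background shares cover 13945 protein-coding genes. Motifs were sought on either strand up to 100 bp from summits, with overlapping matches counted and a palindrome counted once. All 10 genes are named, with every IDR region or, for genes with none, the strongest joint-list region. Other BTB genes are named where they hold an IDR summit, and the rest by name only. The 10 genes, the list of 8 other BTB genes and the 6 motifs were chosen with earlier results of these data known. Alternatives were other TSS distances, protein-coding transcripts, overlap in place of summits, regions near other genes' TSSs left out, the 860 strongest IDR regions, the joint list, each replicate alone, genes left out, and other match and motif windows. Gene assignment and the motif search were tested on simulated data. The work used matplotlib 3.10.9, pandas 2.3.3, scipy 1.17.1 and numpy 2.4.6 under Python 3.11.15.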

Additional observations from a re-analysis of the deposited data

How the results depend on the processing

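No paired analysis was possible because both replicates belong to the 1 group. With the 860 strongest IDR regions, 1 of the 10 genes had a promoter summit and 2 had one in the rest of the span, and with all joint-list regions 7 and 10 did. Each replicate alone, by its 3438 strongest regions here and below unless stated, gave 3 to 4 genes and 5 to 7 genes. Of the other BTB genes, 1 had a promoter summit among the 860 strongest and 1 without regions near another gene's TSS, against 4 in the joint list.

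The promoter share of 31.25% was 18.75% within 250 bp, 37.5% within 1000 bp and by any overlap, 30.8% without regions near other genes' TSSs, 25% among the 860 strongest, 12% in the joint list and 26.7% in either replicate alone. Both replicates gave 4 of 15, so their spread of 0 says nothing about stability. Apart from the joint-list share of 12%, the values of this share lie within its counting interval of 14.2% to 55.6%. Chosen after seeing the data were the omissions of single genes other than Trl. The share was 33.3% without Trl, psq or bab1, 30.8% without fru, 21.4% without lola and 35.7% without mod(mdg4).

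The signal difference between promoter and other regions, 29.7, turned to -39.4 within 250 bp, -156 among the 860 strongest and -8.64 without lola. It was 2.93 within 1000 bp and by overlap, 10.5 without regions near other genes' TSSs, 7.98 in the joint list, 23.3 without Trl, 14.4 without bab1, 35.0 without fru and 11.8 without psq. Among the 3438 strongest regions of each replicate it was -0.0251 in replicate 2 and 0.942 in replicate 3. In the complete replicate lists it was 0.198 in replicate 2 and 10.9 in replicate 3. Its direction was not stable, with lola holding the only promoter region among the 860 strongest, and the cause was not tested.

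GAGAG in 6.25% of regions became 0% within 50 bp, among the 860 strongest and without Trl, 22.4% in the joint list, and 0% to 6.67% in each replicate alone. The strongest Trl region had a signal of 254 to 309 in each replicate alone, on scales of their own. Matching in both replicates held for all 12 regions left without Trl and all 13 left without regions near other genes' TSSs. Of the 16 regions, 13 matched with summits within 75 bp and 12 among the strongest regions of each replicate. All 16 matched within 300 bp and by overlap. Read depth is unknown, so what it limits cannot be stated.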
